A study of Mus musculus with 4 samples.

Results

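The weak end of the CTCF map that B cells and plasmablasts share consisted of 2549 autosomal sites, 10.5% of the 24186 autosomal sites listed in both cell types. CTCF peaks of the 2 cell types were paired where they overlapped by at least 1 bp, each with the peak of nearest midpoint. The pairs were ranked by the authors' peak score separately in each list, and a site counted as weak in both where its percentile was 20 or less in B cells and also 20 or less in plasmablasts. The limit took in 19.8% of the pairs in B cells and 20% in plasmablasts. The sites were thus chosen by the scores of both lists, and their scores below are a description with no test.

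CTCF is a zinc finger protein that binds a long, GC-rich DNA motif and halts the cohesin complex, which extrudes chromatin loops. It is known for marking the borders of chromatin domains and for bringing distant elements together, among them the gene segments of the immunoglobulin loci in B lineage cells. Strong CTCF sites are commonly bound in many tissues, whereas weak ones are known to vary more between cell types. A peak score averages over all cells of a sample, so a site bound firmly in few cells and a site bound loosely in many look alike.

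All mice were C57BL/6 and aged 6 weeks. The B cells were the CD43- fraction of the spleen, taken by magnetic beads. Plasmablasts, the antibody-secreting descendants of activated B cells, were sorted by flow cytometry as CD138+ spleen cells 3 days after a retro-orbital injection of 50 µg lipopolysaccharide (LPS), a bacterial activator of B cells. For either cell type 1 CTCF and 1 input library were made, and the CTCF peak lists were analysed here. The labels name no LPS for the B cells and no plasmablasts without it, so cell type and injection cannot be told apart. The libraries also came from different Illumina instruments, a Genome Analyzer II for B cells and a HiSeq for plasmablasts, which cannot be told apart from the cell type either. No spread between replicates could be measured from 1 CTCF library each, so no p-value was computed. The peak lists hold no expression values, so the labelled cell types could not be checked against marker genes.

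The weak sites lay far below the bulk of the shared sites in both libraries. In B cells their scores ran from 10.2 to 43.5, with a median of 27.8 and quartiles of 22.2 and 35.2. All shared autosomal sites had a median of 105.6 there. In plasmablasts the weak sites scored from 0.4 to 9.8, with a median of 6.9 and quartiles of 5.7 and 8.2, where all shared sites had a median of 23.3. At the opposite corner, 3037 sites (12.6% of the pairs) lay at the percentile of 80 or above in both lists and serve as a comparison. The median score of these strong sites was 8.86 times that of the weak ones in B cells and 8.90 times in plasmablasts. The unit of the score is not stated, so these ratios are not shown to be folds of binding. The lists are scaled differently, so neither scores nor ratios are to be set against each other across lists.

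**Figure D1:**
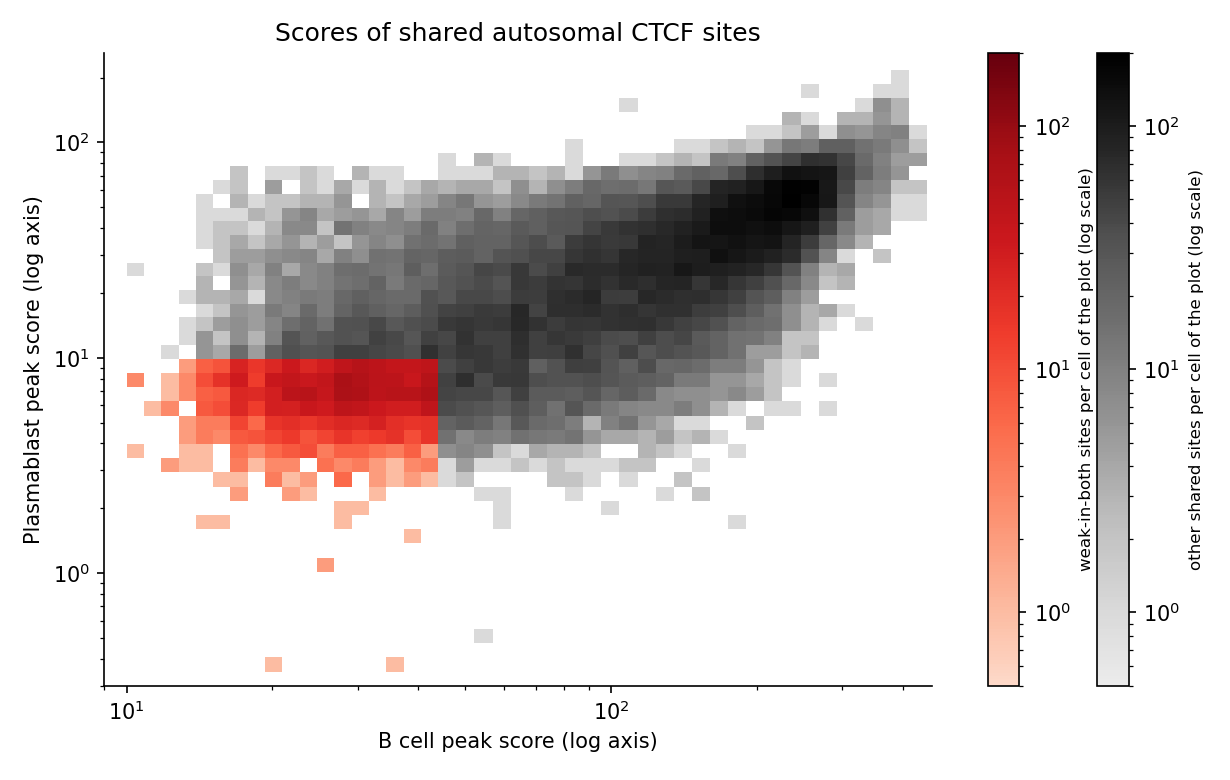
B cell score (horizontal, log axis) against plasmablast score (vertical, log axis) for the 24186 shared autosomal sites, shaded by the number of sites in each cell of the plot. The 2549 sites weak in both (red) fill the lower left corner up to scores of 43.5 and 9.8, and the other shared sites are grey.

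A larger part of the sites weak in one library than of all shared sites was weak in the other, though far from all. Of the 4779 shared sites at or below the limit in B cells, 53.3% were also weak in plasmablasts, and the other 2230 ranked above the limit there. Of the 4849 shared sites at or below the limit in plasmablasts, 52.6% were weak in B cells and 2300 were not. Beside these shares, the limit took in 20% of all shared sites in plasmablasts and 19.8% in B cells. The rule set these cuts but not how far they coincide, which was not tested. Within the weak corner, the rank of a site in B cells said almost nothing about its rank in plasmablasts: Spearman's rho over the 2549 sites was 0.05. Over all 24186 sites rho was 0.70, and over the strong sites 0.29. These correlations are across sites, which share the same 2 libraries, and a narrow range of scores lowers rho by itself.

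Peaks of such low score were mostly unshared in B cells and mostly shared in plasmablasts. The B cell list held 14115 autosomal peaks with scores up to 43.5. Of these, 66.1% had no overlapping plasmablast peak (exact 95% binomial interval 65.4 to 66.9%), and 18.1% were sites weak in both. The plasmablast list held 7753 autosomal peaks with scores up to 9.8. Of these, 37.5% had no B cell peak (36.4 to 38.5%), and 32.9% were sites weak in both. Over the whole autosomal lists the unshared percentages were 32.2% in B cells and 20.01% in plasmablasts. The limits were percentiles among shared sites, so they cut the lists at different depths: 39.6% of all autosomal B cell peaks lay at or below the limit, against 25.6% in plasmablasts. Intervals here and below cover counting error only.

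The sites at the limit were not set off from those beyond it. In B cells 74 weak sites shared the highest score inside, 43.5, and the next score among shared sites was 44.5. A site just inside lay on chromosome 2 at 30808769 to 30809073 (mm9, 1-based), with a plasmablast score of 6.2. A site just outside lay on chromosome 1 at 58292290 to 58292594, with a B cell score of 44.5 and the same plasmablast score of 6.2. In plasmablasts 58 weak sites had the highest score inside, 9.8, and the next score was 10. A site just inside that limit was on chromosome 1 at 193887150 to 193887454 (B cell score 25.9), and one just outside was on chromosome 1 at 59373602 to 59373906 (27.8).

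The peaks of the pair were less well aligned at the weak sites than at strong sites. The midpoints of the B cell and plasmablast peaks lay a median of 28 bp apart at the weak sites, with quartiles of 14 and 50 bp. The 95% interval of that median, taken from the ranks over sites, was 27 to 30 bp. At the strong sites the median was 10 bp (9 to 10), and at all shared sites not weak in both it was 16 bp (15 to 16). Midpoints within 50 bp were found at 75.1% of the weak sites (exact interval 73.4 to 76.8%), against 88.3% of all shared sites and 99.1% of the strong ones (98.7 to 99.4%). Midpoints more than 100 bp apart were found at 113 weak sites, which is 4.43% (3.67 to 5.31%), and at 0.49% of the strong sites (0.28 to 0.81%). The plasmablast peaks, the narrower of the lists, lay wholly inside the B cell peaks at 83.7% of the weak sites and 99.3% of the strong ones.

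The shift had no preferred direction along the chromosome. The plasmablast midpoint was at the higher coordinate at 49.3% of the weak sites (47.3 to 51.2%), and 27 sites had the same midpoint in both lists. The median signed offset, plasmablast minus B cell, was 0 bp, with quartiles of -28 and 28 bp. The larger offset at weak sites was seen on all 19 autosomes: the median ran from 25 to 35.5 bp at weak sites, from 15 to 18 bp at shared sites not weak in both, and from 8 to 11 bp at strong sites. Depth is unknown for both libraries, and its part in the alignment of the peaks was not tested.

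**Figure D2:**
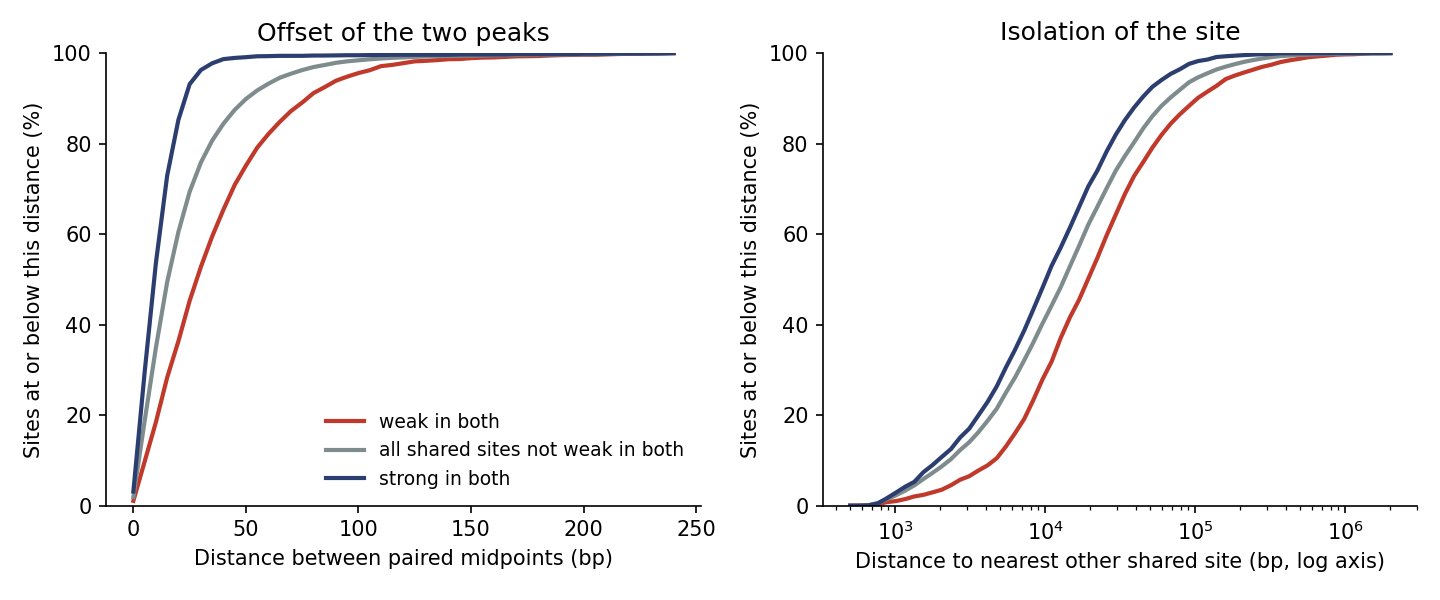
Cumulative share of sites (vertical, %) by distance between the paired midpoints (left, bp) and by distance to the nearest other shared site (right, bp, log axis). The weak sites (red) lie to the right of the strong sites (blue) in both panels, with medians of 28 against 10 bp and 19228 against 10124 bp, and all shared sites not weak in both (grey) lie between them.

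The offset followed the B cell score more than the plasmablast score. Among sites in the weakest quintile of both lists the median was 28 bp. Keeping to the weakest quintile in plasmablasts, it was 19 bp (18 to 21) in the second quintile by B cell score, 17 bp (15 to 18) in the third and 14 bp (11 to 15) in the fourth. In the other direction it was larger, not smaller: keeping to the weakest quintile in B cells, the median was 30 bp (28 to 32) in the second quintile by plasmablast score, 39 bp (35 to 45) in the third and 45.5 bp (40 to 57) in the fourth. The highest quintile had 38 bp (32 to 53) over 101 sites. The sites weak in both were thus not the worst aligned: the 2230 sites weak in B cells only had a median of 34 bp (32 to 36), and 9.37% of them had midpoints more than 100 bp apart (8.19 to 10.7%). Sites weak in plasmablasts only had 18 bp (17 to 19).

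The same asymmetry was seen within the weak corner. The weak sites were divided into 4 groups of like size by score. In the lowest of these by B cell score (10.2 to 22.2) the median offset was 33.5 bp (30 to 36), and in the highest (36.1 to 43.5) it was 26 bp (23 to 28). By plasmablast score the 4 groups had medians of 28, 29, 28 and 29 bp from lowest to highest, with intervals that all overlapped.

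**Figure D3:**
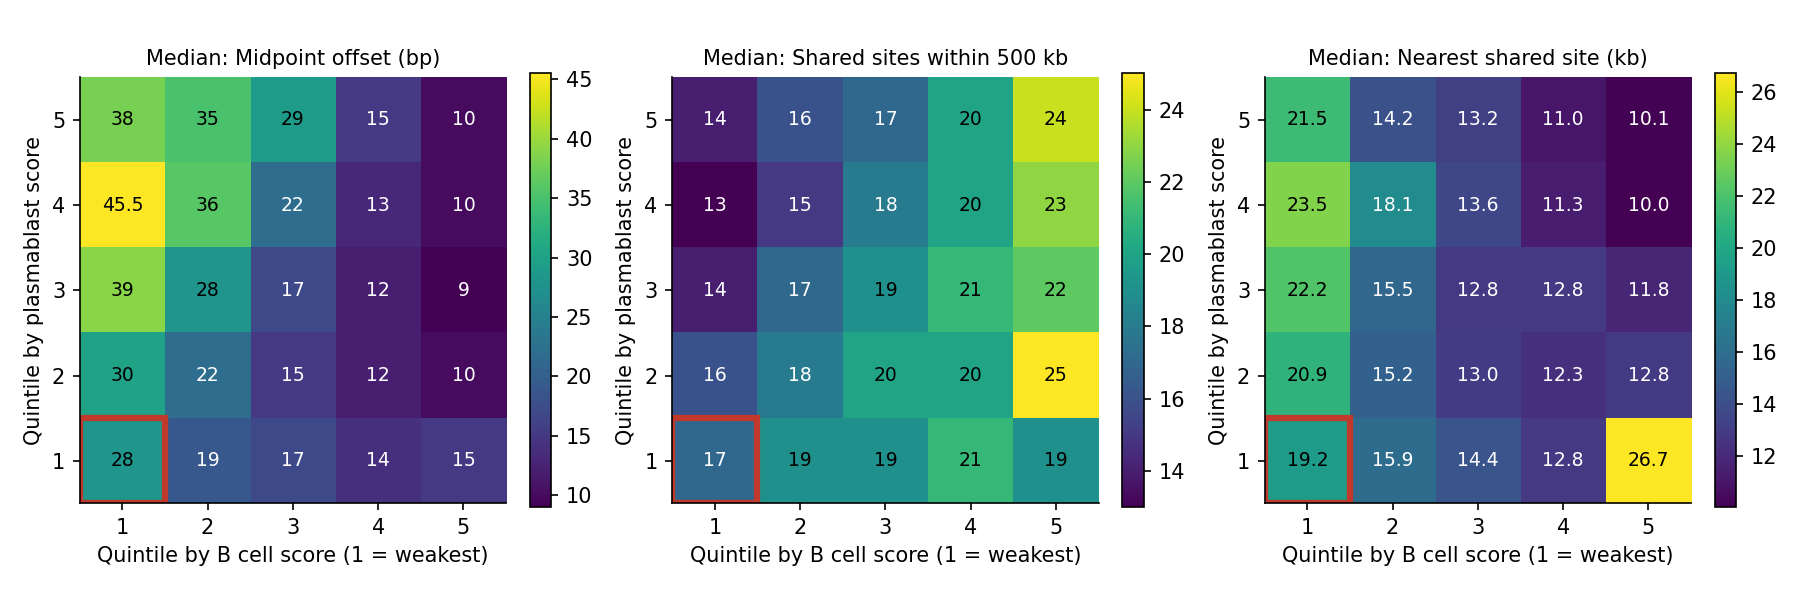
Medians over shared sites divided into quintiles by B cell score (horizontal) and plasmablast score (vertical) for the midpoint offset (left, bp), the number of other shared sites within 500 kb (middle) and the distance to the nearest other shared site (right, kb). The corner weak in both (red frame) holds 28 bp, 17 sites and 19.2 kb; the cell of highest B cell and lowest plasmablast quintile rests on 21 sites.

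The weak sites stood more alone than strong sites, as did the sites weak in B cells only. Their nearest other shared site lay a median of 19228 bp away (interval 18254 to 20573), against 10124 bp (9593 to 10648) for strong sites and 13281 bp (13012 to 13607) for all shared sites not weak in both. Sites weak in B cells only lay at least as far from their neighbours, at 21755.5 bp (20044 to 23207), and sites weak in plasmablasts only at 15358.5 bp (14258 to 16171). A neighbour within 2 kb was found for 86 weak sites, 3.37% (2.71 to 4.15%), beside 7.99% of all shared sites and 10.6% of the strong sites (9.56 to 11.8%). No other shared site lay within 100 kb at 267 weak sites, 10.5% (9.31 to 11.7%), beside 6.16% of all shared sites and 1.88% of the strong ones (1.43 to 2.42%). Among sites weak in B cells only this was 11.6% (10.3 to 13.0%), an interval that overlaps that of the sites weak in both. The longer distance was seen on all 19 autosomes, with chromosome medians of 14320 to 28596 bp at weak sites and 7952 to 17126.5 bp at strong sites. Within the weak corner the isolation again went with the B cell score: the median distance was 21385.5 bp (19239 to 23788) in the lowest of the 4 groups by B cell score and 15526.5 bp (13066 to 17547) in the highest. The groups by plasmablast score ran from 18415.5 to 20067 bp with overlapping intervals.

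Local density differed in the same direction but by less. The weak sites had a median of 17 other shared sites within 500 kb (16 to 17), the strong sites 24 (24 to 25) and all shared sites not weak in both 19 (19 to 20). Sites weak in B cells only had fewer neighbours than the sites weak in both, 15 (14 to 16), and sites weak in plasmablasts only had 19 (18 to 19). On each of the 19 autosomes the median at weak sites was below that at strong sites and below that at sites not weak in both. The share of shared sites that were weak in both went from 13.2% (12.3 to 14.2%) where 0 to 10 other shared sites lay within 500 kb to 8.14% (7.35 to 8.98%) where 33 to 69 did. The share that were strong in both went the other way over the same range, from 6.03% (5.39 to 6.72%) to 19.4% (18.3 to 20.6%).

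**Figure D4:**
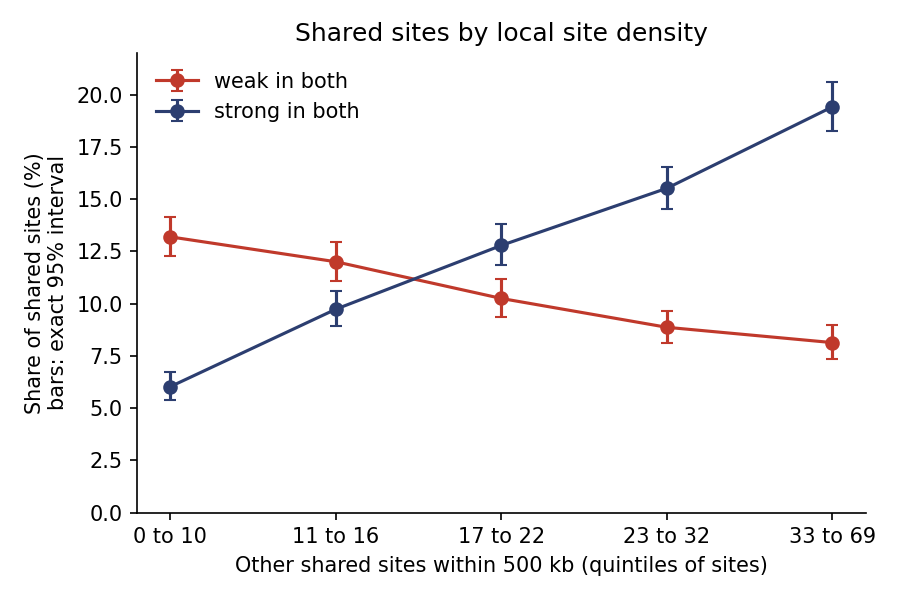
Share of shared autosomal sites (vertical, %) that were weak in both (red) and strong in both (blue) in quintiles of sites by the number of other shared sites within 500 kb (horizontal); bars are exact 95% binomial intervals. The weak share goes from 13.2% to 8.14% and the strong share from 6.03% to 19.4% between the sparsest and the densest quintile.

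The greater distance was also seen within quintiles of local density. These are wide, from 0 to 10 sites in the sparsest to 33 to 69 in the densest. Density inside a quintile was not compared, so the quintiles cannot separate distance from density. In each of the 5 density quintiles the median distance to the nearest shared site was longer for weak sites than for the others. In the sparsest quintile it was 47867 bp (40901 to 56333) against 33750.5 bp (31522 to 35443), and in the densest 11431 bp (10439 to 12442) against 7823 bp (7505 to 8155). The midpoint offset of weak sites barely moved with density, with medians of 29, 29, 28, 28 and 28 bp from the sparsest to the densest quintile.

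The neighbours of weak sites were themselves on the weak side. They were ranked by the same scores that chose the weak sites, and no test was made. Where weak sites were each other's nearest, each was counted. The nearest other shared site had a median percentile of 41.1 in B cells (39.3 to 42.3) and 43.8 in plasmablasts (41.9 to 45.8). Over all shared sites the neighbour's medians were 51.9 (51.3 to 52.5) and 51.6 (51.0 to 52.2). For strong sites they were 62.6 (60.7 to 64.1) and 57.5 (56.1 to 59.0). The neighbour was itself weak in both at 361 of the 2549 weak sites, 14.2% (12.8 to 15.6%), beside 9.63% of all shared sites and 9.09% of shared sites not weak in both (8.71 to 9.48%). It was strong in both at 9.81% of the weak sites (8.68 to 11.0%). Sites weak in B cells only had like neighbours: 13.9% had one weak in both (12.4 to 15.4%), and its median percentiles were 39.7 in B cells (38.1 to 41.5) and 44.2 in plasmablasts (42.5 to 46.3). For sites weak in plasmablasts only, 10% had a neighbour weak in both (8.80 to 11.3%). Weak neighbours were more frequent at weak sites than at other sites on 18 of the 19 autosomes, and chromosome 15 was the exception with 6.19% against 9.34%. On all 19 the neighbour's median B cell percentile was lower at weak sites, and on 18 its plasmablast percentile was, with chromosome 9 the exception (56.0 against 51.9). The share also went with density: in the sparsest quintile 18.4% of the weak sites had a weak neighbour, against 11.1% of the others, and in the densest 10.3% against 6.54%.

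Unshared peaks around the weak sites were mostly from B cells, as they were around all other sets of shared sites. Each unshared autosomal peak was given to its nearest shared site within 500 kb. The weak sites received 1308 B cell only and 634 plasmablast only peaks, so that 67.4% were B cell only (65.2 to 69.4%). Around all shared sites not weak in both this was 66.1% (65.3 to 66.8%), and around strong sites 66.2% (64.1 to 68.2%), with overlapping intervals. Around sites weak in B cells only it was lower, 61.5% (59.2 to 63.8%), and around sites weak in plasmablasts only 69.7% (67.5 to 71.8%). The B cell majority was not seen among higher scoring unshared peaks: of those above their own list's median, 38.3% near the weak sites were B cell only (31.9 to 45.0%), against 41.7% near the other shared sites. The number of B cell only peaks was 51.3 per 100 weak sites and 44.5 per 100 strong sites. For plasmablast only peaks it was 24.9 and 22.8. The weak sites also lay farther from other shared sites, and the part of this in the counts per site was not tested. Within a fixed 500 kb on either side the median was 8 B cell only and 3 plasmablast only peaks at weak sites, and 11 and 4 at strong sites.

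The weak sites were spread evenly over the autosomes. Their share of a chromosome's shared sites ran from 9.34% on chromosome 15 (97 of 1039; interval 7.64 to 11.3%) to 11.9% on chromosome 12 (110 of 926; 9.87 to 14.1%). The interval of each of the 19 autosomes included the overall 10.5%. Chromosome 2 had the most weak sites, 210, and chromosome 18 the fewest, 62.

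**Figure D5:**
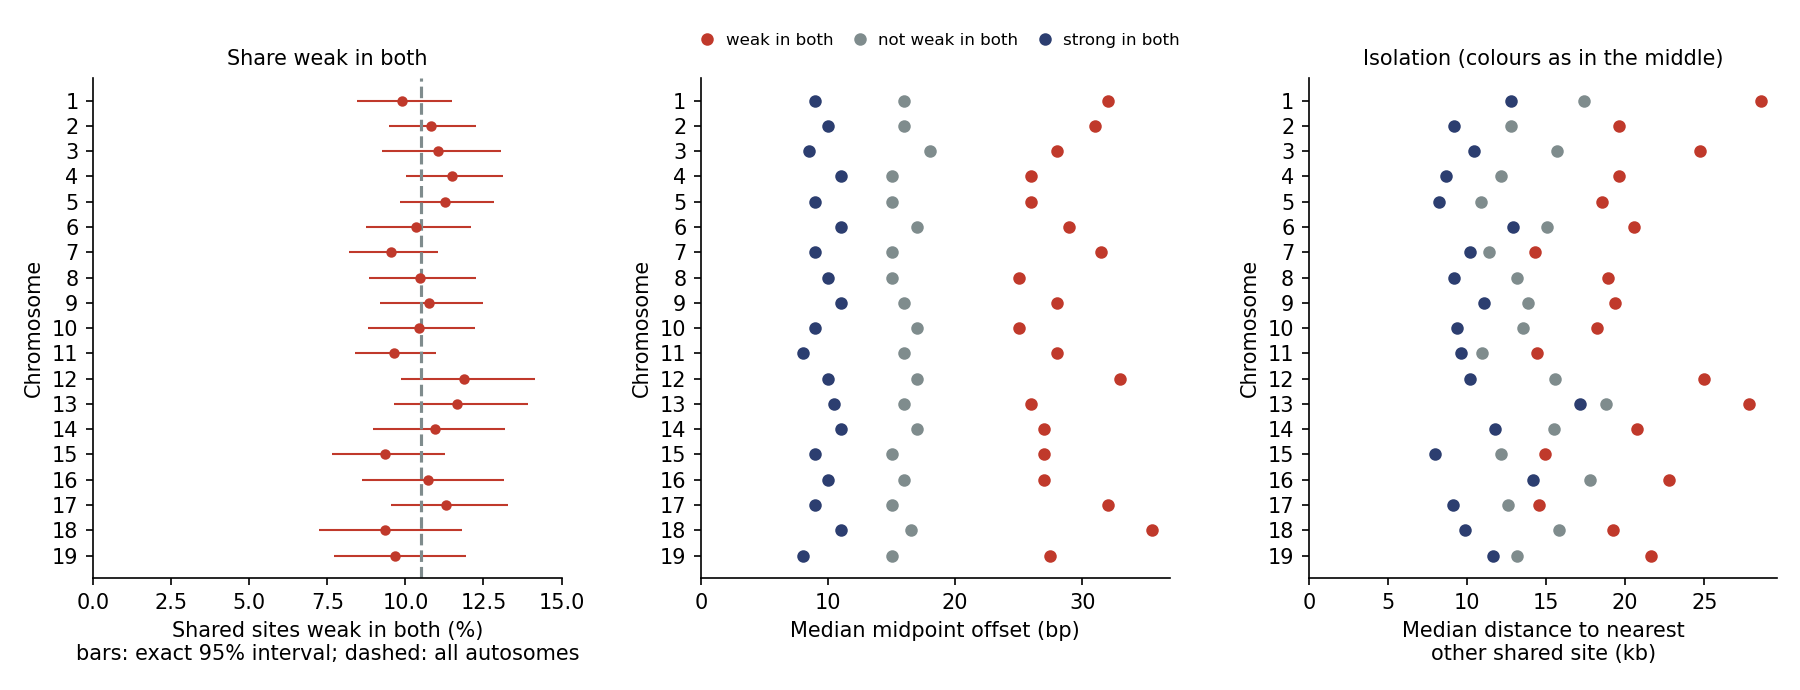
For each autosome (vertical), the share of shared sites that were weak in both (left, %, with exact 95% binomial intervals and a dashed line at the overall 10.5%), the median midpoint offset (middle, bp) and the median distance to the nearest other shared site (right, kb). Weak sites (red) lie to the right of sites not weak in both (grey) and strong sites (blue) on all 19 autosomes in the middle and right panels.

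Most weak sites were single among their neighbours, in a set that makes up 10.5% of the shared sites. The share of single sites that random placing would give was not computed. Along the chromosomes 1898 of them (74.5%) had a shared site that was not weak in both, or a chromosome's end, on either side. A further 496 came in 248 pairs of adjacent weak sites and 126 in 42 runs of 3, with 6 runs of 4 and 1 of 5. The run of 5 lay on chromosome 5 from 126273131 to 127919394, a stretch of 1646 kb. Its B cell scores were, in order of position, 17.6, 36.1, 19.4, 24.1 and 18.5, and its plasmablast scores 6.2, 9.4, 6.4, 7.3 and 5.2. The second of these sites was the highest of the run in both lists, and its midpoints were 1 bp apart. A run of 4 followed on the same chromosome from 128195735 to 128898146, with B cell scores of 22.2 to 38 and plasmablast scores of 6.2 to 9.3. The other run of 4 named by the rule was far more compact, at 139 kb on chromosome 4 from 141810047 to 141949189. Its B cell scores of 43.5, 18.5, 33.3 and 25.9 met plasmablast scores of 6.1, 5.7, 5.7 and 3.6.

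Weak sites were counted in windows of 1 Mb. Of the 1949 windows with a shared site, 1234 held a weak one and 72 held 5 or more. The richest was chromosome 7 from 29000001 to 30000000, where 9 of 48 shared sites were weak in both (18.8%), next to 5 strong ones. A pair of its weak sites lay 2435 bp apart, at 29054438 to 29054742 (B cell score 39.8, plasmablast score 9.8) and at 29056873 to 29057177 (23.2 and 9.4). Chromosome 4 from 141000001 to 142000000 held 8 of 28 (28.6%), among them the compact run of 4. Chromosome 17 from 27000001 to 28000000 held 8 of 45 (17.8%) beside 31 B cell only and 4 plasmablast only peaks. Among the 997 windows with at least 10 shared sites, the median weak share was 9.09%, with quartiles of 5% and 15.4%. The highest was 45.5%, reached by 5 of 11 sites on chromosome 6 from 140000001 to 141000000 and on chromosome 17 from 74000001 to 75000000. At the other end 155 of these windows held no weak site. The one with the most shared sites, chromosome 11 from 116000001 to 117000000, had 41, of which 11 were strong in both.

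Of the 5 weakest sites by mean percentile, 4 had at least 16 other shared sites within 500 kb. This is no trait of theirs, since the median was 17 over all weak sites and 19 over all shared sites. The lowest was on chromosome 2, with its B cell peak at 156112506 to 156112810 (score 13.9) and its plasmablast peak at 156112646 to 156112824 (score 1.6). Its midpoints were 77 bp apart, and the nearest other shared site, 8056 bp away, was strong in both, at the percentiles of 84.6 in B cells and 80.4 in plasmablasts. The next was on chromosome 17 at 28018526 to 28018830, with scores of 12 in B cells and 3 in plasmablasts, and it had 42 other shared sites within 500 kb. The third, on chromosome 10 at 67550531 to 67550835 (12 and 3.2), had a shared site 1849 bp away that was weak in B cells only. The fourth was on chromosome 7 at 135888156 to 135888460, with scores of 13 and 3.4. The fifth, on chromosome 1 at 85283688 to 85283992 (10.2 and 3.6), stood apart, with 3 other shared sites within 500 kb and the nearest, also weak in both, 172343 bp away. All 5 had midpoints 29 to 77 bp apart.

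The most isolated and the most crowded weak sites are given with their scores, which the rule held to at most 43.5 in B cells and 9.8 in plasmablasts. Farthest from any other shared site was the one on chromosome 12 at 63994234 to 63994538, with scores of 34.3 in B cells and 9.8 in plasmablasts. Its nearest shared site was 1923937 bp away and weak in both, and no unshared peak lay within 500 kb. On chromosome 3 the site at 25574010 to 25574314 (37 and 6.9) was 1507574 bp from the next, which was strong in both. Also on chromosome 3, the site at 17513522 to 17513826 (23.2 and 7.1) was 1460734 bp from the next. The most crowded were 2 adjacent weak sites on chromosome 7, at 20149817 to 20150121 (38 and 5.7) with 65 other shared sites within 500 kb, and at 20158783 to 20159087 (26.9 and 5.5) with 64. The latter also had one of the wide offsets, its plasmablast midpoint lying 166 bp below that of the B cell peak. The site on chromosome 10 at 80499076 to 80499380 (22.2 and 9.3) had 64 such neighbours as well, and its midpoints were 28 bp apart.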

How the data were processed

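The authors deposited 1 list of CTCF peaks per CTCF library, with position, name and a score whose unit is not stated. Its order, range, quartiles and medians, and a ratio of medians, were used within a list only. The submitters' processing notes name Bowtie, HOMER and the build mm9. Versions, thresholds, any pooling and how the input served are not given in the sources. Per the labels' protocols, cells were fixed for 10 minutes in formaldehyde at 1%, chromatin was sheared to 200 to 400 bp on average, and 30 µg of it was precipitated with a Millipore CTCF antibody. Depth is unknown, since the lists give no read counts. Input libraries were not analysed here.

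Starts were taken as BED starts and raised by 1. No autosomal peak overlapped more than 1 peak of the other list: bedtools 2.31.1 also gave 24186 overlapping pairs. Percentiles are average ranks over these pairs. Shares have exact (Clopper-Pearson) 95% binomial intervals and medians distribution-free 95% intervals from binomial ranks; both take the sites to be independent and say nothing of the spread between libraries. Distances between sites were taken between B cell midpoints. Pairing, ranks and distances were tested on simulated data.

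The sites and comparisons were chosen with earlier results of these data known. Named sites follow a rule: the 5 lowest by mean percentile, the 3 on each side of each limit, the 3 most isolated, the 3 most crowded, the 3 richest windows and the 3 longest runs, of which those that matter are given. The windows of extreme share were chosen after their values were seen. Genes, promoters, motifs and DNA sequence are not given, since no mm9 genome or annotation was used here. Alternatives changed the limit, the overlap rule, the chromosomes, the lists, the window and the ranks. The scripts ran in Python 3.11.15 with scipy 1.17.1, pandas 2.3.3, numpy 2.4.6 and matplotlib 3.10.9.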

Additional observations from a re-analysis of the deposited data

How the results depend on the processing

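Of 45 values under alternatives, 31 stayed within the interval of the reported value (for the number of sites, within 1.5 times) and 14 moved. No difference from the other shared sites whose intervals lay apart turned its direction. With a percentile limit of 10 the weak sites numbered 793 (3.28% of shared sites), 72.8% with midpoints within 50 bp. With a limit of 30 they numbered 4648 (19.2%), with 78.1%. That percentage was 81.0% with 50% reciprocal overlap and 79.1% with midpoints within 100 bp, rules that remove wide offsets by construction. With the lowest 10% of each list left out before pairing, 2280 sites were weak in both, among them 51.4% of the reported sites. This setting removes low scoring sites by construction and ranks the rest anew. Midpoints then lay within 50 bp at 77.4% of the weak sites. The median number of shared sites within 500 kb was 15, and the median distance to the nearest was 21038 bp. Within 100 kb the median was 4 shared sites, as for the other shared sites, so the difference in density within 500 kb was not seen there. A whole-number median of this size is coarse, and no finer measure was computed within 100 kb. Among the higher scoring unshared peaks, those above their list's median, 38.3% near weak sites were B cell only, against 41.7% near the others, and with the shortened lists the percentages were 65.2% and 66.7%; the causes were not tested. Ranking within each chromosome by the number in the peak name, an alternative chosen after seeing the data, gave 11.0% of shared sites as weak in both. Alternatives on motifs and promoters were not run, since no mm9 genome or annotation was used here. No paired analysis was possible because each cell type had 1 library, and for the same reason none could be left out in turn. The depth is not known, and a low score is not shown to be weak binding in the cells.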

Other observations

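Sites on the X chromosome were outside the rule. When they were ranked together with the autosomes, 79 of the 516 shared X sites were weak in both, 15.3% (exact 95% interval 12.3 to 18.7%), against 10.5% of the autosomal sites (10.2 to 10.9%). A larger share of X sites was weak in B cells only, 26.6% (22.8 to 30.6%), against 9.22% on autosomes, while 8.91% were weak in plasmablasts only (6.60 to 11.7%), against 9.51%. The X sites weak in both had a median midpoint offset of 23 bp and lay a median of 44698 bp from the nearest other shared site (29717 to 58367), against 26132 bp (21239 to 29364) for the other X sites.

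The peak names carry a number on each chromosome, whose meaning is not stated. On the 19 autosomes high numbers went with low scores. The number followed the order of the B cell scores, from highest to lowest, almost exactly, with Spearman's rho of 0.99994 to 0.99997. It followed that of the plasmablast scores less closely, with 0.973 to 0.980. Ranked by these numbers within each chromosome, in place of the scores over all autosomes, 2664 sites were weak in both. Of these, 2276 were among the 2549 chosen by score. Both the measure and the scope of the ranking thus differed.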
